A study of Homo sapiens with 4 samples.

Results

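The enzymes that choose which fatty acids enter membrane phospholipids were followed in 10 genes of the 19739 in the coding table. They were chosen by name: the long-chain acyl-CoA synthetases ACSL1, ACSL3, ACSL4, ACSL5 and ACSL6, the lysophospholipid acyltransferases LPCAT3, MBOAT1 and MBOAT2, and AGPS and FAR1 of ether lipid synthesis. All 10 were found, each as 1 entry. RNA was sequenced from 2 lines labelled as hepatocellular carcinoma, HepG2 and Huh7, both grown in DMEM with 10% FBS. Each line was sequenced without treatment and after 24 h of RSL3@O2-ICG NBS with low-frequency ultrasound, which gives 4 groups of 1 library each. RSL3 is an inhibitor of the lipid hydroperoxide reductase GPX4, and the labels do not spell out NBS. No library analysed here came from cells given ultrasound, the carrier or RSL3 by itself, so the parts of the treatment cannot be told apart.

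Ferroptosis is a form of cell death in which polyunsaturated fatty acids of membrane phospholipids are peroxidised with the help of iron. ACSL4 couples arachidonic and adrenic acid to coenzyme A and LPCAT3 places the activated acids in phospholipids, so both raise the oxidisable share of the membrane. ACSL3 activates monounsaturated acids and MBOAT1 and MBOAT2 insert them into lysophospholipids, which lowers that share. AGPS and FAR1 work at the peroxisome, where AGPS makes the ether bond of plasmalogens and FAR1 supplies the fatty alcohol for it.

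The libraries labelled HepG2 went against their label, and this holds for every comparison given here. Of 15 hepatocyte markers, 0 reached 1 FPKM in either of them, and their summed level was 0.599 FPKM untreated and 0.468 FPKM treated. FPKM, fragments per kilobase and per sequenced fragments of the library, is a level per length of transcript. In Huh7 all 15 markers reached 1 FPKM in both libraries, with sums of 2366.9 and 2151.3 FPKM. Fibroblast and stellate markers stayed low in all libraries, with 1 to 4 of 7 at 1 FPKM or more and sums of 2.89 to 11.1 FPKM. Of 5 endothelial markers, 0 or 1 reached 1 FPKM. Blood markers summed to 1.43 FPKM untreated and 21.0 FPKM treated in the cells labelled HepG2 and to 19.7 and 6.81 FPKM in Huh7, with PTPRC and CD3E, which define leukocytes and T cells, listed at 0 in all 4. In the cells labelled HepG2 nearly all of this was CD68, at 1.38 and 20.7 FPKM, which is uncertain because 85.8% of its exonic bases overlap another gene. Without the highest marker the sums were 0.0472 and 0.236 FPKM in the cells labelled HepG2 and 4.63 and 3.98 FPKM in Huh7. Of the 5 blood markers, 1 reached 1 FPKM in each library of the cells labelled HepG2, against 2 untreated and 3 treated in Huh7. The part of cell identity in the results was not tested. Inferred depth was 22900000 to 26400000 fragments per library. In bulk RNA, fewer cells of a kind and less RNA per cell cannot be told apart.

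Promoter letters, taken from RefSeq on GRCh38.p14, are shown for 5 of the genes, picked by their levels. ACSL4 and ACSL3 were read highly in both lines, and MBOAT2 and FAR1 were close to 0 in 1 line. AGPS differed with treatment in 1 line. ACSL5 was also close to 0 in Huh7 and differed with treatment in the cells labelled HepG2, where ACSL6 was close to 0. The letters of ACSL5 and ACSL6 are not shown. Each sequence is the part of the 250 bases before the RefSeq start that also lies upstream of the gene as the deposited table places it, read 5′ to 3′ on the gene's strand. Capitals mark a GC box (GGGCGG) or a CCAAT box (CCAAT) on either strand, and neighbouring matches may overlap. The regions are chr2:222860786-222860941 (+) for ACSL3, chrX:109733404-109733507 (-) for ACSL4, chr2:9003710-9003934 (-) for MBOAT2, chr2:177392523-177392767 (+) for AGPS and chr11:13668418-13668667 (+) for FAR1.
ACSL3: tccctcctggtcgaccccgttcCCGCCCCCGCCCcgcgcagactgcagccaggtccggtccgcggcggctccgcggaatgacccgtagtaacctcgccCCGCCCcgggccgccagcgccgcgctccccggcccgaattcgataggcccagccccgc
ACSL4: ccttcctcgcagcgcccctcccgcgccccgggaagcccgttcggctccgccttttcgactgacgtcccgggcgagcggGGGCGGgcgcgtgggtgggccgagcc
MBOAT2: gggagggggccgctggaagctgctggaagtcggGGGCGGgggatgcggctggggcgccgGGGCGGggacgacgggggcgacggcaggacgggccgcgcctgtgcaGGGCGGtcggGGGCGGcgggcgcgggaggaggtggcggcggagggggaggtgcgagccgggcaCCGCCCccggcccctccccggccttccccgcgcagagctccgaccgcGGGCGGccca
AGPS: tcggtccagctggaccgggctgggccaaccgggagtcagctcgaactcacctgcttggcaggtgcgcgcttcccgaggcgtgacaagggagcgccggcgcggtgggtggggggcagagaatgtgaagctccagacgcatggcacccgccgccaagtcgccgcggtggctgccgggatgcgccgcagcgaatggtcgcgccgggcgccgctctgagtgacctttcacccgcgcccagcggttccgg
FAR1: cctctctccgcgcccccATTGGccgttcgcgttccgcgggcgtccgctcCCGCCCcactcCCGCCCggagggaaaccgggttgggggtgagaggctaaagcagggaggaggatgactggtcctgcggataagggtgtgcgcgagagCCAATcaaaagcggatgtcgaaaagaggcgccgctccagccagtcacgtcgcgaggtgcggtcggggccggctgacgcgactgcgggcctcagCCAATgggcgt
All 5 are rich in G and C. Over the full 250 bases, G and C made up 75.2% for ACSL3, 77.2% for ACSL4, 84.0% for MBOAT2, 72.4% for AGPS and 68.8% for FAR1, against a median of 58.0% over 35116 windows of the same length. CG dinucleotides numbered 30 to 42 against a median of 11. The full MBOAT2 window held 7 GC boxes and those of ACSL3 and ACSL4 held 3 each, FAR1 had 2 and AGPS 1. At least 1 GC box occurred in 42.6% of all windows. CCAAT boxes numbered 3 for FAR1 and 1 for ACSL3, the latter outside the letters shown, and 32.0% of all windows held one. Also searched on both strands were the cyclic AMP response element TGACGTCA (1.65% of windows), the antioxidant response element core TGACNNNGC (10.9%), the CEBP-ATF response element TGATGNAA (3.14%) and the sterol regulatory element core TCACNCCAC (0.883%). None of these 4 motifs matched in the 5 full windows, which says only that the letters are not there. Among genes whose letters are not shown, the antioxidant core matched in some but not all windows of ACSL1, ACSL5 and ACSL6. The sterol core matched in some but not all windows of ACSL1 and ACSL6.

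ACSL4 was read in the cells labelled HepG2 at 19.0 FPKM without and 20.7 FPKM with treatment, and at 30.1 and 39.3 FPKM in Huh7. The gene (ENSG00000068366) lies on the minus strand at chrX:109624244-109733403, with positions as in the deposited table, which match GRCh38. Both Huh7 levels lay above both levels of the cells labelled HepG2. On a log2(FPKM + 1) scale, on which low genes change less than their FPKM, treated cells were higher by 0.12 in the cells labelled HepG2 and by 0.37 in Huh7. The widest ratios that counting error allows were 0.01 to 0.23 and 0.29 to 0.46. These ranges join the exact 95% Poisson limits of both libraries, and they leave out the spread between cultures, which no library here measures. Of all measured genes in the same line, 52.5% had a lower ratio than ACSL4 in the cells labelled HepG2 and 71.4% in Huh7.

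ACSL3 (ENSG00000123983, chr2:222860942-222944639, plus strand) was the most abundant of the 10 per length in the untreated cells labelled HepG2. It was read there at 29.7 FPKM untreated and 34.4 FPKM treated, and in Huh7 at 22.1 FPKM untreated and 42.2 FPKM treated. The treated Huh7 library was the highest of the 4 and the untreated Huh7 library the lowest. The log2 ratio was 0.20 in the cells labelled HepG2 and 0.90 in Huh7, a 1.87-fold difference, with 94.4% of measured Huh7 genes at a lower ratio. Counting error alone allows 0.81 to 1.00 for the Huh7 ratio.

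Among the other synthetases, ACSL1 (ENSG00000151726, chr4:184755595-184826818, minus strand), which activates fatty acids for both storage and oxidation, went opposite ways in the lines. Its level was 11.6 FPKM untreated and 20.4 FPKM treated in the cells labelled HepG2, against 19.8 and 15.3 FPKM in Huh7. The treated library was thus the higher of the pair in the cells labelled HepG2, by 0.76 on the log2 scale, and the lower in Huh7, with a log2 ratio of -0.35. The difference between these ratios, -1.12, has no test.

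ACSL5 (ENSG00000197142, chr10:112374018-112428380, plus strand), a synthetase of mitochondria and endoplasmic reticulum, was read in the cells labelled HepG2 at 0.894 FPKM untreated and 2.85 FPKM treated. In Huh7 it was read at 0.0784 and 0.103 FPKM. The 2 levels of the cells labelled HepG2 rest on about 77 and 221 fragments, with 95% limits of 60.8 to 96.2 and 193 to 252, and the Huh7 levels on about 7 and 8. The log2 ratio in the cells labelled HepG2 was 1.02, or 2.03-fold, and the ratio of the FPKM themselves was 3.19-fold. ACSL5 passed the minimum of 1 FPKM only through the treated library, in which it was high.

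ACSL6 (ENSG00000164398, chr5:131949973-132012243, minus strand), known best from brain, was below 1 FPKM in all 4 libraries. It was listed at 0 in the untreated and at 0.0048 FPKM in the treated cells labelled HepG2, under the 0.0456 and 0.0506 FPKM that 3 fragments would give. The Huh7 libraries had 0.693 and 0.710 FPKM, on about 47 and 42 fragments. It entered no count of measured genes.

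**Figure D1:**
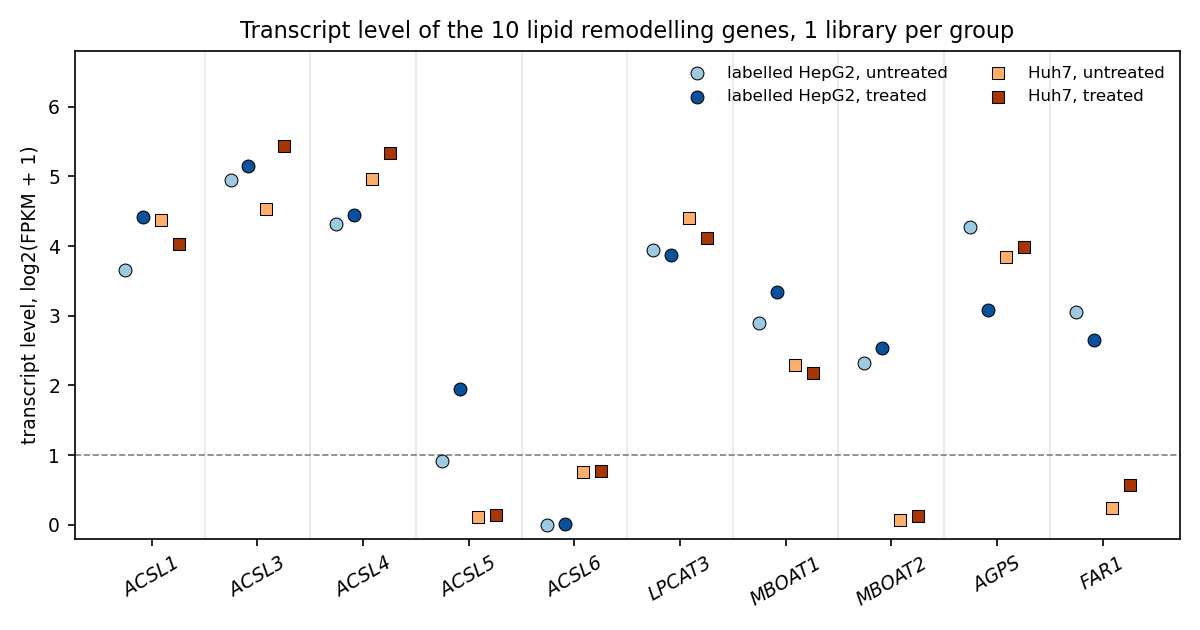
Transcript level of each gene in each library as log2(FPKM + 1), 1 point per library; the dashed line is 1 FPKM. ACSL3 and ACSL4 stand high in all 4 libraries, whereas MBOAT2 and FAR1 are above the line only in the cells labelled HepG2.

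Summed over the 5 ACSL genes, the level was 61.2 FPKM untreated and 78.3 FPKM treated in the cells labelled HepG2, and 72.8 and 97.6 FPKM in Huh7. ACSL4 held 31.0% and 26.4% of this sum in the cells labelled HepG2 and 41.3% and 40.2% in Huh7. ACSL3 held 48.6% and 44.0% in the former, and 30.4% untreated and 43.3% treated in Huh7. ACSL1 took 19.0% and 26.0% in the cells labelled HepG2, and 27.2% and 15.6% in Huh7. The ratio of ACSL4 to ACSL3, of the synthetase of polyunsaturated acids to that of monounsaturated acids, was 0.638 untreated and 0.601 treated in the cells labelled HepG2. In Huh7 the ratio was 1.36 untreated and 0.930 treated. Only the untreated Huh7 library had more ACSL4 than ACSL3 per length.

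**Figure D2:**
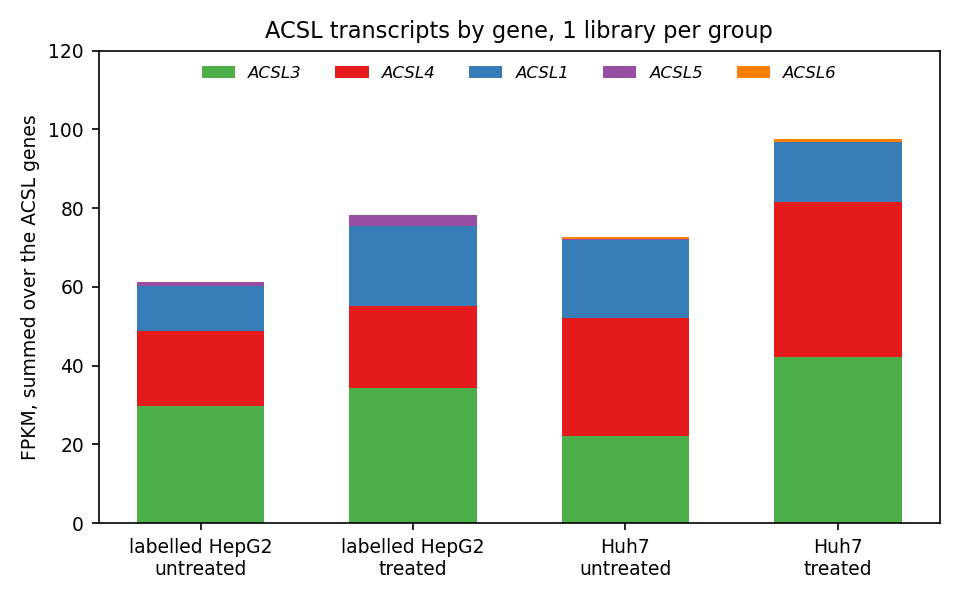
FPKM of the 5 ACSL genes stacked in each library, 1 library per bar. The sum runs from 61.2 FPKM in untreated cells labelled HepG2 to 97.6 FPKM in treated Huh7, where the ACSL3 segment is the tallest of the 4 libraries.

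LPCAT3 (ENSG00000111684, chr12:6976185-7018477, minus strand) differed little with treatment. Its level was 14.4 FPKM untreated and 13.6 FPKM treated in the cells labelled HepG2, and 20.2 and 16.4 FPKM in Huh7. The treated library was the lower of the pair in both lines, with log2 ratios of -0.08 and -0.28. Counting error allows -0.27 to 0.11 for the first and -0.45 to -0.11 for the second. These levels are uncertain, since 65.6% of the exonic bases of LPCAT3 overlap EMG1 and whether the reads keep strand was not given in the sources used here.

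MBOAT1 and MBOAT2, the enzymes that place monounsaturated acids, were both read higher in the cells labelled HepG2. MBOAT1 (ENSG00000172197, chr6:20102145-20212399, minus strand) was at 6.46 FPKM untreated and 9.17 FPKM treated there, and at 3.92 and 3.51 FPKM in Huh7. Its log2 treatment ratios were 0.45 and -0.12, and the counting range of the second, -0.48 to 0.23, spans 0. MBOAT2 (ENSG00000143797, chr2:8852690-9003709, minus strand) was at 4.01 and 4.78 FPKM in the cells labelled HepG2, on about 799 and 858 fragments. In Huh7 it was at 0.0512 and 0.0966 FPKM, on about 10 and 17 fragments. Its log2 treatment ratio was 0.21 in the cells labelled HepG2, and in Huh7 both libraries were below the minimum.

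LPCAT3 was 1.38 times the sum of MBOAT1 and MBOAT2 in the untreated and 0.974 times in the treated cells labelled HepG2. In Huh7 it was 5.09 and 4.55 times that sum. These ratios are as uncertain as the LPCAT3 levels, because of the overlap with EMG1.

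AGPS (ENSG00000018510, chr2:177392768-177559299, plus strand) had 18.3 FPKM in untreated and 7.49 FPKM in treated cells labelled HepG2, with about 2015 and 744 fragments behind them. These fragments were inferred from the median length of 2 transcripts, of 815 and 7764 bases, so the counting range below is rough. Huh7 gave 13.3 FPKM untreated and 14.9 FPKM treated. The treated cells labelled HepG2 were the lowest of the 4, and the other 3 libraries lay between 13.3 and 18.3 FPKM. The log2 ratio of -1.18, a 2.27-fold lower level, was undercut by 1.38% of the measured genes in that line, and counting error allows -1.34 to -1.03. In Huh7 the ratio was 0.15, so the lines differed by 1.34, again without a test. Relative to GNPAT, which catalyses the step before AGPS, the AGPS level was 0.621 untreated and 0.323 treated in the cells labelled HepG2, and 0.282 and 0.338 in Huh7.

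FAR1 (ENSG00000197601, chr11:13668668-13732346, plus strand) was read in the cells labelled HepG2 at 7.34 FPKM untreated and 5.31 FPKM treated. Huh7 had 0.178 FPKM untreated and 0.491 FPKM treated, from about 26 and 62 fragments. The treated library was the lower in the cells labelled HepG2, with a log2 ratio of -0.40, and the higher in Huh7, where both levels were below 1 FPKM and the ratio was 0.34 on the scale with 1 FPKM added. FAR2, the related reductase, was no higher in Huh7: it stood at 1.09 and 1.99 FPKM in the cells labelled HepG2, against 0.0874 and 0.239 FPKM in Huh7.

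Counted at 2-fold, 1 of the 9 measured genes was higher after treatment in the cells labelled HepG2, ACSL5, beside 6.7% of the 11843 measured genes. AGPS was the 1 that was lower, beside 2.43%. In Huh7, 0 of the 6 measured were 2-fold higher and 0 lower, beside 3.88% and 2.19% of 11945 genes. A gene counts as measured where at least 1 of the libraries compared reaches 1 FPKM. At 1.5-fold, the cells labelled HepG2 had 2 higher, ACSL1 and ACSL5 (background 19.2%), and 1 lower (8.76%), and Huh7 had ACSL3 higher (15.4%) and 0 lower (7.63%). The median log2 ratio of the measured genes was 0.20 in the cells labelled HepG2 and 0.01 in Huh7, against 0.09 and 0.10 over all measured genes. With size factors the Huh7 median of the 6 measured was -0.09 and that of all genes -0.0024. Of all genes, 95% lay between -0.99 and 1.37 in the cells labelled HepG2 and between -0.95 and 1.11 in Huh7, and of the measured genes of the 10 only AGPS in the cells labelled HepG2 lay outside. The call of ACSL5 was lost when libraries were divided by size factors, and at a minimum of 5 FPKM ACSL5 was not counted.

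**Figure D3:**
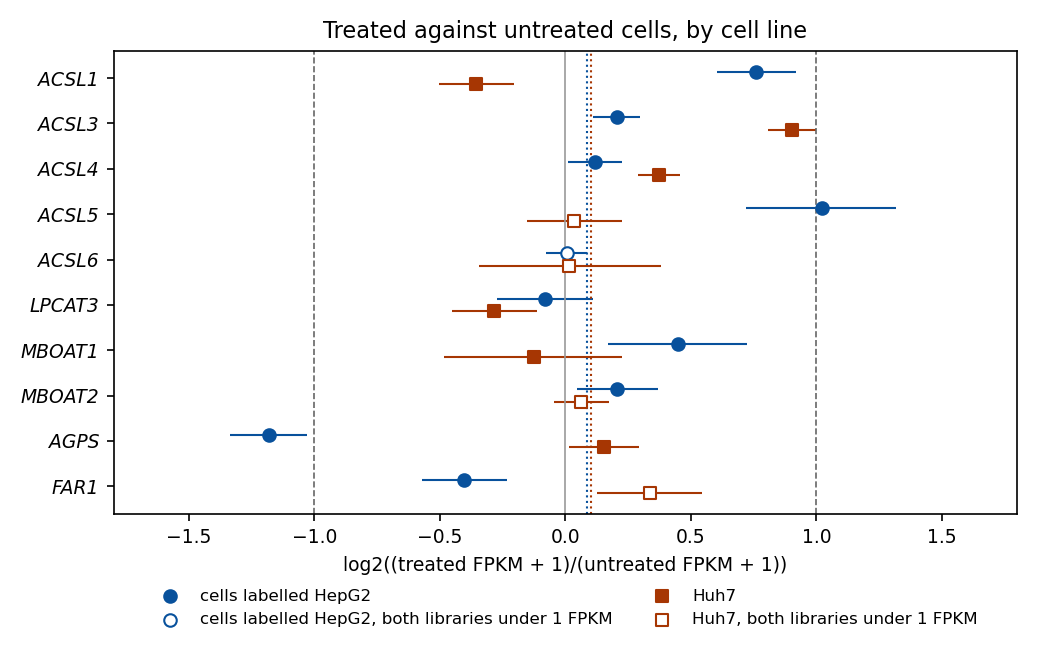
Treated over untreated cells as the log2 ratio of FPKM + 1 for each gene and line; bars are the widest ratios that counting error allows, dashed lines 2-fold, dotted lines the medians of all measured genes. AGPS in the cells labelled HepG2 lies at -1.18 and ACSL5 at 1.02, with all Huh7 points between the 2-fold lines.

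The single test of treatment that the design allows is limma on log2(FPKM + 1) of the 4 libraries with the cell line as a block. It has 1 residual degree of freedom and asks whether the lines responded alike, not whether further cultures would. By limma, 0 of the 9 genes tested had an adjusted p under 0.05 (Benjamini-Hochberg over 13030 genes), and 0 had an unadjusted p under 0.05. Over all genes limma called 0.0%, with 1534 genes at an unadjusted p under 0.05. The smallest adjusted p in limma was that of ACSL3, at 0.445, with an effect of 0.55 (SE 0.25), higher after treatment in both lines. The adjusted p of ACSL3 ranged from 0.411 to 1.0 over the alternatives. ACSL4 had an effect of 0.25 (SE 0.23) and an adjusted p of 0.684 in limma.

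More genes passed for the cell line than for treatment. In the line term of the same limma fit, 5 of the 9 genes passed an adjusted p of 0.05, beside 37.6% of the 13030 genes tested. ACSL4 was higher in Huh7, beside 18.6% of all genes, and ACSL5, MBOAT1, MBOAT2 and FAR1 were lower, beside 19.1%. Both libraries of a line stand for the line in this test, with 1 library per group, so its p-values leave out the spread between cultures. The test holds only for these cultures, with the marker levels given above. ACSL5, MBOAT2 and FAR1 reached 1 FPKM only in cells labelled HepG2, where they are high, so their direction was fixed by the minimum and the count of 5 says nothing of the 10 genes as a group.

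FAR1 was lower in Huh7 by 2.45 on the log2 scale (SE 0.32; limma adjusted p = 0.00092, with 0.00041 to 0.016 over the alternatives, the latter with no minimum). Untreated libraries differed 7.08-fold and treated libraries 4.23-fold with 1 FPKM added, and by 41.1-fold and 10.8-fold in the FPKM themselves. MBOAT2 was lower by 2.33 (SE 0.29; limma adjusted p = 0.00085, 0.00045 to 0.010, again with no minimum). Its FPKM was 78.3-fold lower in untreated and 49.5-fold lower in treated Huh7. FAR1 and MBOAT2 passed the minimum only through the cells labelled HepG2, where they are high. Only the limma adjusted p with no minimum, 0.016 for FAR1 and 0.010 for MBOAT2, does not rest on that filter.

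ACSL4 was higher in Huh7 by 0.77 (SE 0.23; limma adjusted p = 0.033, 0.022 to 0.070). The untreated ratio was 1.56-fold and the treated ratio 1.86-fold. ACSL5 entered the test only through the treated cells labelled HepG2, so its call is read as no result on the line. Its levels there, 0.894 and 2.85 FPKM, were above the Huh7 levels of 0.0784 and 0.103 FPKM. MBOAT1 was lower by 0.89 (SE 0.28; limma adjusted p = 0.042, 0.027 to 0.12). The calls of ACSL4, ACSL5 and MBOAT1 were each lost under at least 1 alternative. Without the treatment block only MBOAT2 and FAR1 passed, both of which met the minimum only through the cells labelled HepG2.

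ACSL1, ACSL3, LPCAT3 and AGPS did not pass, with limma adjusted p of 0.70, 0.87, 0.27 and 0.62. ACSL1, ACSL3 and AGPS changed sides between the untreated and the treated pair. The log2 ratio of Huh7 to the cells labelled HepG2 was 0.72 untreated and -0.39 treated for ACSL1, -0.41 and 0.29 for ACSL3, and -0.43 and 0.90 for AGPS. LPCAT3 kept its side, at 0.46 and 0.26. At the 2-fold limit, 0 of 8 measured genes were higher in untreated Huh7 (background 17.5%) and 2 lower, MBOAT2 and FAR1 (background 17.2%). Among treated libraries, 0 of 9 were higher (background 15.8%) and 4 lower, ACSL5, MBOAT1, MBOAT2 and FAR1 (background 16.6%). At 1.5-fold the untreated pair gave 2 higher (background 26.2%) and 3 lower (29.2%), and the treated pair 2 higher (25.5%) and 4 lower (27.3%). MBOAT2 and FAR1 in both pairs, and ACSL5 in the treated pair, were measured only through the cells labelled HepG2, where they are high. Their direction was thus fixed by the minimum, and the counts of lower genes say nothing of the 10 genes as a group.

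**Figure D4:**
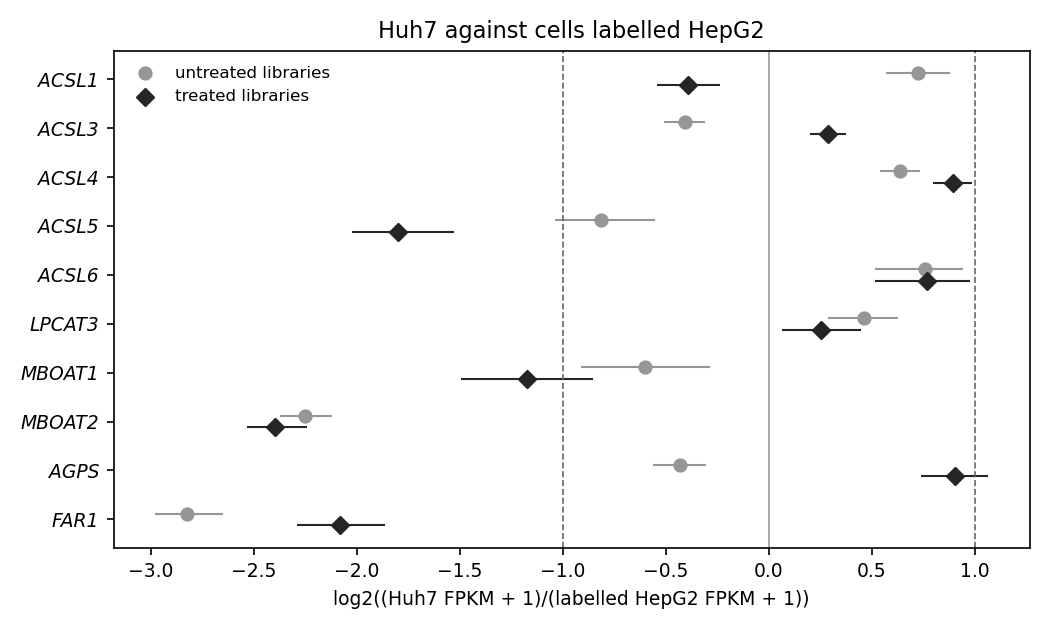
Huh7 over cells labelled HepG2 as the log2 ratio of FPKM + 1, untreated and treated libraries apart; bars are the widest ratios counting error allows and dashed lines mark 2-fold. MBOAT2 and FAR1 lie below -2 in both pairs, and AGPS moves from -0.43 in the untreated to 0.90 in the treated pair.

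Around the 5 synthetases, 3 of 11 measured other acyl-CoA synthetases were 2-fold higher and 0 lower after treatment in the cells labelled HepG2, with a median log2 ratio of 0.48. Beside these and the next counts stand the shares of all measured genes, 6.7% higher and 2.43% lower in the cells labelled HepG2, and 3.88% and 2.19% in Huh7. In Huh7, 1 of 10 synthetases was higher and 0 lower, with a median of 0.39, and with size factors 0 of 10 was higher. ACSS2, which activates acetate, went from 26.9 to 91.6 FPKM in the cells labelled HepG2, and in Huh7 from 44.9 to 94.4 FPKM. ACSF2, a mitochondrial medium-chain synthetase, was at 1.53 and 6.62 FPKM in the cells labelled HepG2, against 9.63 and 13.4 FPKM in Huh7. SLC27A1, a fatty acid transporter with synthetase activity, was at 0.422 and 1.95 FPKM, passing the minimum only through the treated library, and was below 1 FPKM in Huh7. At a minimum of 5 FPKM, 2 of 7 were higher in the cells labelled HepG2. Acyl-CoA thioesterases, which undo the activation, had 0 of 8 past 2-fold in either line, with medians of 0.15 and -0.20.

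Of the other lysophospholipid acyltransferases, 1 of 12 was 2-fold higher in the cells labelled HepG2 (median 0.46) and 0 of 10 in Huh7 (median 0.14), with 0 lower in either. AGPAT3 was the 1, at 3.97 FPKM untreated and 9.77 FPKM treated, against 11.7 and 13.1 FPKM in Huh7. LPCAT1, which prefers saturated acyl chains, was at 58.1 and 81.1 FPKM in the cells labelled HepG2, against 15.3 and 7.88 FPKM in Huh7. By the limma line term, 5 of the 12 were lower in Huh7 and 0 higher, beside 19.1% and 18.6% of all genes, and with size factors 1 was higher. Only 10 of the 12 reached 1 FPKM in Huh7. The rest were tested only through the cells labelled HepG2, where they are high, so their direction was fixed by the minimum. At a minimum of 5 FPKM, 3 of 10 were lower and 0 higher. At 2-fold, 2 of 11 were higher and 3 lower in untreated Huh7, beside 17.5% and 17.2%.

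Phospholipases A2 release the acyl chain that LPCAT3 and its relatives replace. In the cells labelled HepG2, 1 of 11 was 2-fold higher and 1 lower (median -0.13), and in Huh7 2 of 12 were higher and 0 lower (median 0.33). PLA2G4A, the cytosolic enzyme that frees arachidonic acid, had 19.2 FPKM untreated and 7.63 FPKM treated in the cells labelled HepG2, against 1.64 and 2.52 FPKM in Huh7. PLA2G4C was higher in both lines, from 0.931 to 6.26 FPKM and from 3.04 to 8.49 FPKM. PLA2G7, which cleaves platelet-activating factor, was listed at 0 in the cells labelled HepG2, treated or not, and in Huh7 went from 0.537 to 3.01 FPKM. PLA2G7 in Huh7 and PLA2G4C in the cells labelled HepG2 passed the minimum only through the treated library, where they are high, and at a minimum of 5 FPKM 1 of 10 was higher in Huh7.

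None of the other measured genes of ether lipid synthesis was 2-fold lower after treatment in either line. In the cells labelled HepG2, 0 of 10 passed 2-fold in either direction (median 0.08), with DHRS7B, the reductase after AGPS, at 10.6 and 18.4 FPKM. PEDS1, the plasmalogen desaturase, was at 9.34 and 6.11 FPKM. In Huh7, 1 of 9 was higher and 0 lower (median 0.01, or -0.10 with size factors): TMEM164, an acyltransferase of ether phospholipids, went from 2.63 to 9.26 FPKM. By the limma line term, 7 of 10 genes of this list differed between the lines, 4 higher and 3 lower in Huh7, beside 37.6% of all genes. This fell to 2 of 10 without the treatment block and to 4 of 11 with no minimum. FAR2 of this list was tested only through the cells labelled HepG2, where it is the higher. Peroxisome biogenesis genes had 1 of 19 higher in the cells labelled HepG2, ABCD4 (2.27 and 7.12 FPKM), a transporter now placed at the lysosome, where it exports cobalamin, and 0 of 18 in Huh7, with 0 lower in either and medians of 0.22 and 0.29. ABCD3, an importer of fatty acids into peroxisomes, was at 27.4 and 16.2 FPKM in the cells labelled HepG2, against 26.4 and 21.9 FPKM in Huh7.

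Of the genes that make the acyl chains, only desaturases and elongases were listed, and no measured one was past 2-fold after treatment in either line. Desaturases and elongases of polyunsaturated acids had medians of 0.48 over 4 genes and 0.17 over 6, and those of monounsaturated acids 0.72 and 0.26 over 3. FADS1, the desaturase that completes arachidonic acid, was at 101 and 182 FPKM in the cells labelled HepG2, against 73.6 and 72.4 FPKM in Huh7. ELOVL2, which lengthens long polyunsaturated chains, was listed at 0 in the cells labelled HepG2, treated or not, and had 11.8 and 7.25 FPKM in Huh7. SCD, which makes oleic acid from stearic acid, was at 212 and 351 FPKM and at 501 and 599 FPKM. By the limma line term, 5 of 6 genes of the polyunsaturated list differed between the lines, 3 higher and 2 lower in Huh7, beside 37.6% of all genes, and 4 to 6 were called under the alternatives. Only 4 of these 6 genes reached 1 FPKM in the cells labelled HepG2. The rest, ELOVL2 among them, were tested only through Huh7, where they are high, so their direction was fixed by the minimum.

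Among enzymes linked to phospholipid peroxidation, 2 of 5 were 2-fold higher in the cells labelled HepG2 and 0 of 3 in Huh7, with 0 lower in either and medians of 0.91 and -0.35. ALOX5 was at 0.471 and 2.27 FPKM and ALOXE3 at 0.390 and 1.85 FPKM, both passing the minimum only through the treated library. With size factors 1 of 5 was 2-fold higher, and at a minimum of 5 FPKM 0 of 3. POR, the cytochrome P450 reductase, was at 40.1 and 76.3 FPKM in the cells labelled HepG2, against 69.0 and 73.6 FPKM in Huh7. Reported regulators of the 10 genes had 0 past 2-fold of 13 in the cells labelled HepG2 and of 12 in Huh7, with medians of 0.06 and -0.02. With a pseudocount of 0.1 FPKM, 1 was 2-fold higher in each line. With a common FPKM sum, 1 of 13 was higher in the cells labelled HepG2. NR1H3, the liver X receptor known to control LPCAT3, was at 11.8 and 19.1 FPKM in the cells labelled HepG2, against 17.2 and 28.5 FPKM in Huh7. By limma, 0 genes of these 10 lists had an adjusted p under 0.05 for treatment, with 0 to 3 per list at an unadjusted p under 0.05.

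**Figure D5:**
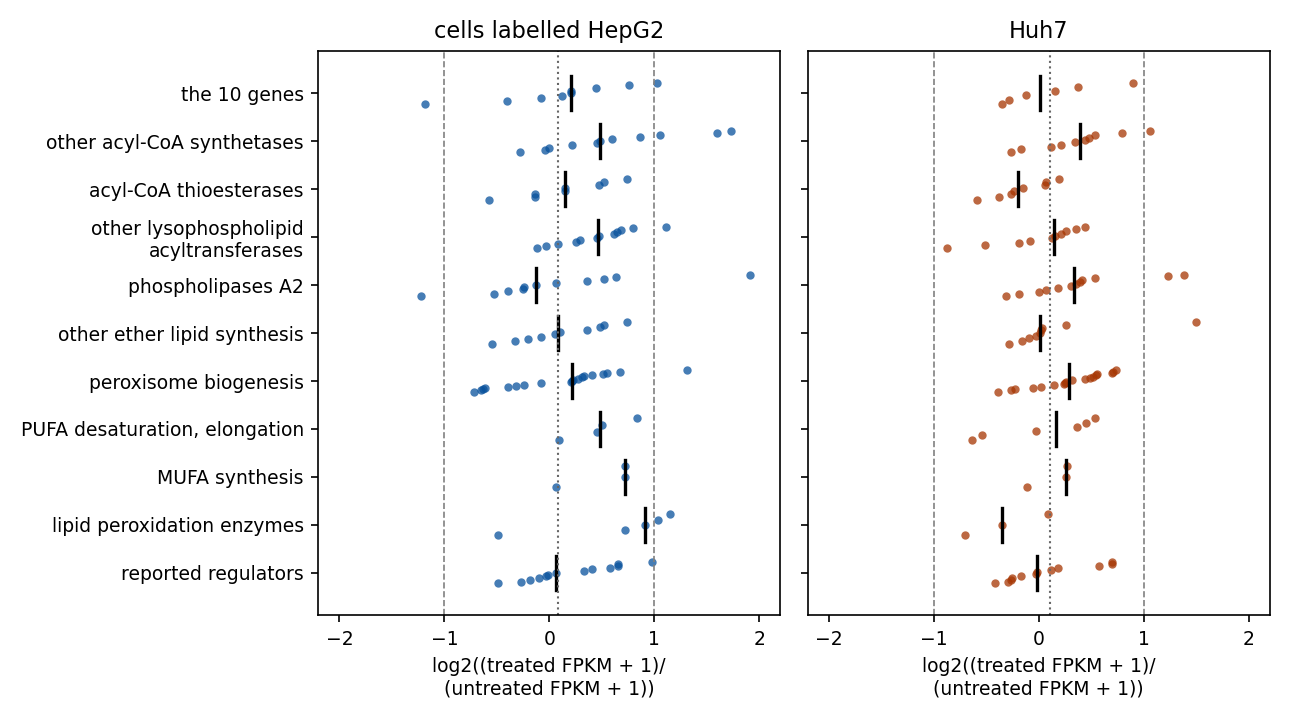
Treated over untreated log2 ratios of FPKM + 1 for the measured genes of each list, 1 point per gene, cells labelled HepG2 on the left and Huh7 on the right; bars are list medians, dotted lines the medians of all measured genes, dashed lines 2-fold, and the height of a point within its list has no meaning. ACSS2 at 1.73 and PLA2G4C at 1.91 lie furthest right in their lists in the cells labelled HepG2.

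In the authors' deposited Gene Ontology table for the cells labelled HepG2, the 3213 input genes (14.5% of its background) hold 2 of the 10, ACSL5 and AGPS. The authors' deposited Gene Ontology table for Huh7 has 2438 input genes (11.0% of its background) and 0 of the 10. How these genes were chosen was not given in the sources used here. In the authors' deposited KEGG table for the cells labelled HepG2, both genes stand under Peroxisome, which has 16 of 81 genes, a p of 0.497 and a corrected p of 1.0. The authors' deposited KEGG table lists AGPS under Ether lipid metabolism with PLA2G4A, PLA2G4C, PLA2G4D and PLPP3, which is 5 of 43 genes with a p of 0.903 in the cells labelled HepG2. For Huh7, the authors' deposited KEGG table has 9 of 43 genes under that pathway, with a p of 0.204 and a corrected p of 0.946.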

How the data were processed

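RNA-seq libraries of 2 human cell lines, untreated and treated for 24 h, were used, 1 per group. The authors deposited FPKM per coding gene and per long noncoding transcript, 1 column per library, per the file headers, and 0 columns of other samples were present. Named without roles in the submitters' processing notes are HISAT2, GATK, Cuffdiff 2.1.1, SAMtools 0.1.18, StringTie 1.3.1, Picard 1.96 and Bowtie2 2.2.8. Genome build, annotation, strand and transcript selection were not given in the sources used here, and 19664 of 19739 coding genes have a GENCODE 29 identifier. The authors' deposited enrichment tables hold counts of genes and p-values per term.

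Ratios are log2((FPKM + 1)/(FPKM + 1)) of genes with at least 1 FPKM in at least 1 library compared, called at 2-fold. FPKM are not counts, so the tests used limma 3.58.1 in R 4.3.3 on log2(FPKM + 1), with a mean-variance trend and terms for line and treatment, checked on simulated data. Fragments were inferred from the step between low FPKM and the median length of GENCODE basic coding transcripts, so the intervals are approximate and cover counting error only. The alternatives were a pseudocount of 0.1 FPKM, 2 rescalings, no minimum, a minimum of 5 FPKM, a 1.5-fold call, and limma without its trend or its block.

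All 10 genes are named, and of each other list up to 3 measured genes with the largest ratio and the most abundant gene could be named. FAR2 was named after its values were seen, and 1 listed regulator is not reported here. The genes and lists were chosen with earlier results of these data known. Of 125 list genes, 2 (TAFAZZIN and PEDS1) were matched through a newer symbol. A gene with over 20% of its exonic bases in another gene is called uncertain. Promoter windows are from RefSeq (GRCh38.p14), 9 of the 10 genes having 1 or more.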

Additional observations from a re-analysis of the deposited data

Results flagged for a closer look

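For 3 genes measured in both lines, meaning at 1 FPKM or more in at least 1 library of each, the treated library was higher than the untreated one in 1 line and lower in the other. The log2 ratio in Huh7 minus that in the cells labelled HepG2 was -1.12 for ACSL1, -0.57 for MBOAT1 and 1.34 for AGPS. With 1 library per group these differences between the lines were not tested. For MBOAT1 the Huh7 ratio of -0.12 lies within counting error of 0. FAR1 also had ratios of opposite sign, -0.40 and 0.34, but was below 1 FPKM in both Huh7 libraries.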

How the results depend on the processing

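Of the 10 genes, those 2-fold higher with treatment in the cells labelled HepG2 numbered 1 as reported, 0 with size factors, 0 at a minimum of 5 FPKM and 2 at 1.5-fold, and in Huh7 1 at 1.5-fold. Between the lines, the number 2-fold higher in Huh7 went from 0 to 2 at 1.5-fold in both pairs. The number lower went from 2 to 1 in the untreated and from 4 to 2 in the treated pair at 5 FPKM, where 7 genes were measured. The limma treatment count over all genes went from 0 to 3 with size factors, 1 with a common FPKM sum and 1 at 5 FPKM. The limma line count among the 10 went from 5 to 3 at 5 FPKM, where 7 were tested. The FAR1 treatment effect was 0.31 with a pseudocount of 0.1 FPKM against -0.03, and the ACSL3 line difference 0.012 with size factors against -0.06. The cause was not tested. Size factors moved the median ratio of all Huh7 genes by -0.10, and the common sum that of the treated line ratios by -0.13. The cell line block pairs the treated with the untreated library of each line, as the labels do, and replicate numbers are not used. Without the treatment block the line count was 2 of 9 and 3606 of 13030 genes, against 4905, and without the cell line block the treatment count stayed 0. Leaving out a library leaves no residual degree of freedom and was not run.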

Other observations

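The coding genes next to MBOAT2 and FAR1 were looked at after the levels of both were seen. On either side of FAR1, BTBD10 was read at 7.65 and 9.27 FPKM in the cells labelled HepG2 against 11.0 and 11.2 FPKM in Huh7, RRAS2 at 20.1 and 17.6 FPKM against 47.6 and 29.2 FPKM, and COPB1 at 52.6 and 33.4 FPKM against 54.1 and 57.9 FPKM. Beside MBOAT2, KIDINS220 was at 7.36 and 9.07 FPKM against 5.14 and 5.94 FPKM, and ASAP2 at 8.94 and 11.7 FPKM against 5.27 and 7.60 FPKM. ADAM17 was at 9.14 and 12.5 FPKM against 8.21 and 8.91 FPKM, and ITGB1BP1 lay between 7.88 and 19.5 FPKM. These 7 of the 12 neighbours, 3 on each side of either gene, were above 5 FPKM in all 4 libraries. ARNTL beside FAR1 was lower in Huh7, as FAR1 was, at 6.70 and 9.55 FPKM against 1.66 and 1.20 FPKM. ID2 beside MBOAT2 was higher in Huh7, at 6.85 and 3.15 FPKM against 81.9 and 33.7 FPKM, and so was RNF144A, at 0 and 0.0112 FPKM against 3.27 and 4.16 FPKM. PTH and SPON1 beside FAR1 were below 1 FPKM in all 4.

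LPCAT2, an acyltransferase of platelet-activating factor synthesis, was at 3.69 and 4.76 FPKM in the cells labelled HepG2 against 0 and 0.028 FPKM in Huh7, and was named after its values were seen.

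Of the long noncoding transcripts, 15 overlap the loci of 6 of the 10 genes, and 0 reached 1 FPKM in any library, the highest being 0.134 FPKM. FAR1-IT1, the only one named after one of the 10 genes, stood at 0.0067 and 0.0149 FPKM in the cells labelled HepG2 and was listed at 0 in Huh7.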
